A study of Homo sapiens with 6 samples.

Results

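The genes described here are 10 core members of the Notch pathway: the receptors NOTCH1, NOTCH2 and NOTCH3, the ligands JAG1 and JAG2, the mediator RBPJ, and the targets HES1, HES4, HEY1 and NRARP. They were taken by symbol from a deposited table of 21429 genes, and all 10 had a row. RNA was sequenced from U251 cells, an established human glioma line, that stably carry amyloid precursor protein (APP) with the mutations K670N and M671L. The tested cells were electroporated with an siRNA against RPL13, a protein of the large ribosomal subunit (siRPL13, 3 libraries), and the control cells with a control siRNA (siNC, 3 libraries). All 6 cultures received 1 µg/mL doxycycline at 24 h to induce APP and were harvested at 72 h. Both groups therefore carry induced mutant APP. No library without it enters any comparison. The siRNA sequences, and whether the line is 1 clone, are not given in the sources used here.

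Notch receptors are single-pass membrane proteins that are cut by furin on their way to the surface. Binding of a Jagged or Delta-like ligand on a neighbouring cell leads to cleavage by an ADAM protease and then by gamma-secretase, the same membrane protease that releases amyloid beta from APP. The freed intracellular domain enters the nucleus, binds the DNA-binding protein RBPJ and, with Mastermind coactivators, switches on genes such as the HES and HEY repressors and the feedback inhibitor NRARP. In the nervous system the pathway is known for keeping neural stem cells undifferentiated and for promoting astroglial fate.

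The values are regularized-log (rlog) values, which are log2 counts scaled for library size and pulled towards each gene's mean. Read depth is unknown, and the median over 15327 tested genes lay between 9.12 and 9.13 in every library. RPL13, the targeted gene, had rlog values of 13.03, 13.12 and 14.09 in siRPL13 replicates 1 to 3, against 14.05, 14.16 and 14.18 in siNC. In the library labelled siRPL13 replicate 3 the target thus lay within the siNC range. Each result is therefore given for all 6 libraries and also for 5 libraries, without the library labelled siRPL13 replicate 3. That second comparison was chosen with the RPL13 level known, and "rose" and "fell" refer to an adjusted p under 0.05 in it (limma). Of 10 astroglial and glioma markers 8 had a mean rlog of at least 10, among them GFAP at 15.02 and VIM at 16.08, while S100B stood at 5.64 and CHI3L1 at 0.23. Of 6 neuronal markers RBFOX3 stood at 0.21 and MAP2 at 10.45, with the others from 6.87 to 8.71, and their summed rlog was 40.0 to 40.3 in siRPL13 and 39.7 to 40.4 in siNC. Of 6 leukocyte markers 3 had a row, CD68 at 0.37, ITGAM at 0.20 and CSF1R at 5.03. Of 6 endothelial markers 5 had a row, TEK at 0.54, CLDN5 at 2.49, VWF at 5.07, CDH5 at 6.21 and KDR at 11.90. Of 5 epithelial markers 4 had a row, CDH1 at 0.42, KRT19 at 1.29, KRT8 at 6.63 and KRT18 at 8.01.

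Without the library labelled siRPL13 replicate 3, the ligand JAG1 rose and the targets HES1, HES4 and HEY1 fell, while the 3 receptors, JAG2, RBPJ and NRARP did not pass the test. HES4 had the largest difference of the 10 genes, to 57.3% of siNC on the rlog scale. HES1 stood at 82.2%, HEY1 at 83.4% and JAG1 at 117.3% of siNC. The 4 calls among 10 genes stand against 19.1% of all genes called in that comparison. By direction, 1 of 10 rose against 8.42% of all genes, and 3 of 10 fell against 10.7%. The median log2 difference of the 10 genes was -0.071, against -0.0014 over all genes. None of the 4 calls held without siRPL13 replicate 1 as well, and only that of HES4 held without siRPL13 replicate 2. Those of JAG1 and HES4 held without siNC replicate 2. The number of all genes called moved between these fits too, so the losses are not read as particular to these genes. In bulk RNA, fewer cells with a transcript and less transcript per cell cannot be told apart.

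With all 6 libraries 0 of the 10 genes passed limma's test at an adjusted p under 0.05, and 0% of all genes did. At an unadjusted p under 0.05, 1 of the 10 (HEY1) passed, against 8.32% of all genes. The groups did not overlap for 1 of the 10 (again HEY1), against 13.8% of all genes. In the 5-library comparison they did not overlap for 4 of the 10, against 51.3% of all genes.

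**Figure D1:**
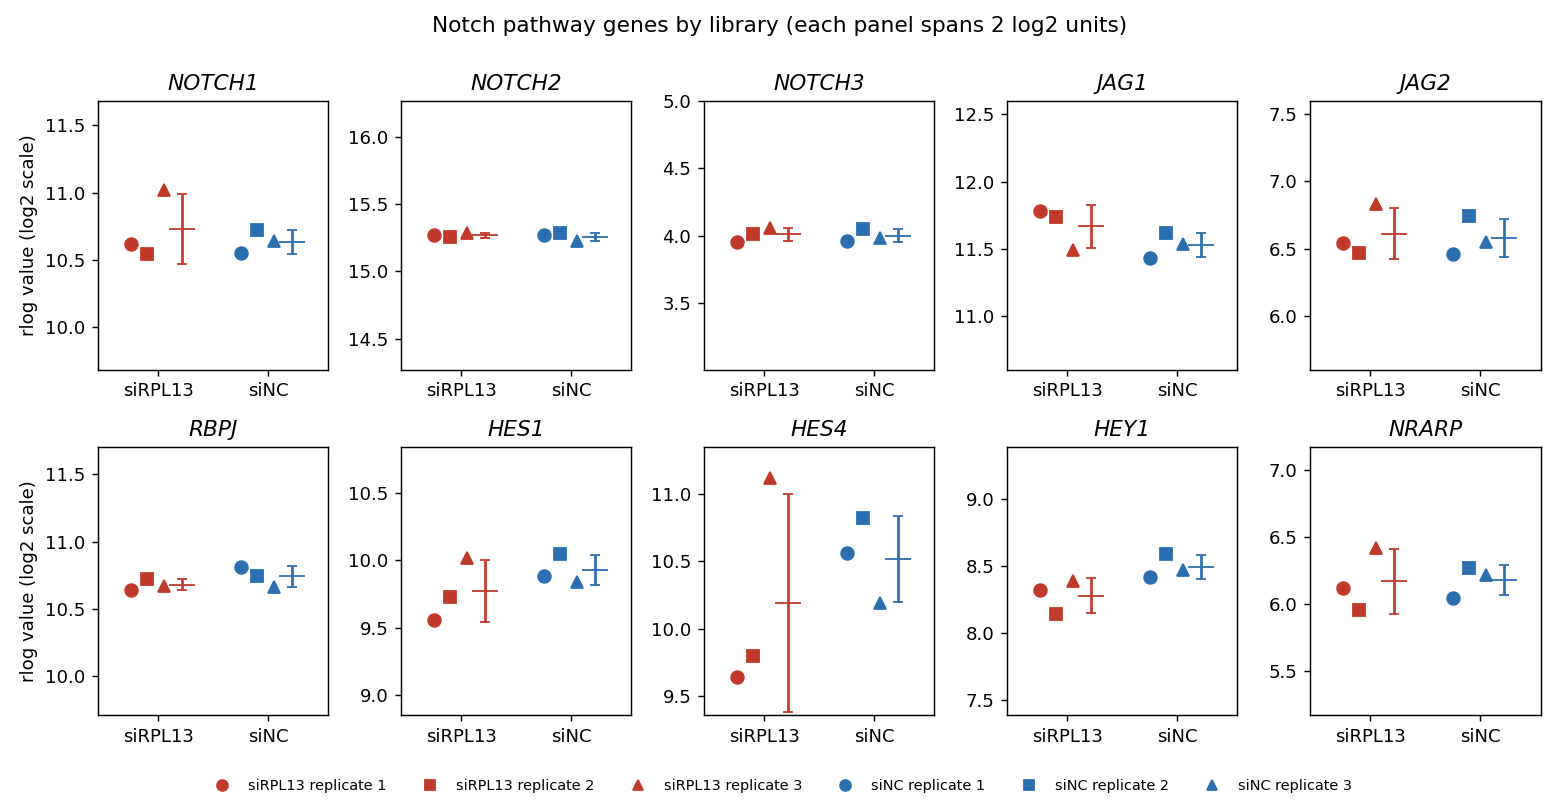
rlog value (vertical axes, log2 scale, not starting at 0, each spanning the same width) of the 10 Notch pathway genes, with 1 point per library, siRPL13 in red and siNC in blue, shapes for replicate numbers, and bars for the mean ± SD (n = 3). The siRPL13 values of HES4, 9.64, 9.80 and 11.12, lie on both sides of siNC, while NOTCH2 lies between 15.23 and 15.29 in all 6.

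**Figure D2:**
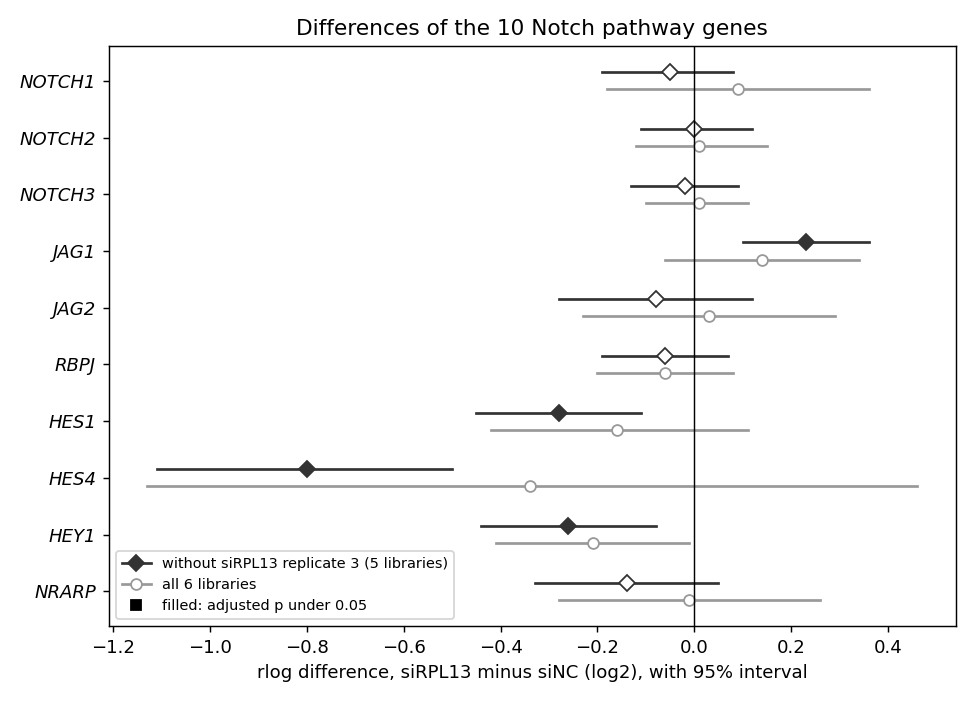
rlog difference between siRPL13 and siNC (horizontal axis, log2) with its 95% interval from limma for each gene, without the library labelled siRPL13 replicate 3 (dark diamonds) and with all 6 libraries (grey circles); filled symbols have an adjusted p under 0.05. Only JAG1, HES1, HES4 and HEY1 have filled symbols, all of them in the 5-library comparison, and the interval of HES4 with 6 libraries runs from -1.13 to 0.46.

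NOTCH2 was the receptor with the highest level and the most even one. NOTCH2 (ENSG00000134250, GRCh38 chromosome 1, 119911553 to 120069626, minus strand) stood at 15.27, 15.26 and 15.29 in siRPL13 replicates 1 to 3 and at 15.27, 15.29 and 15.23 in siNC. All 6 values lay within a range smaller than the difference of any called member. Its log2 difference was 0.00 ± 0.05 (SE) with 5 libraries, with a 95% interval from -0.11 to 0.12 (limma, adjusted p 0.961). Reads of NOTCH2 can be shared with the near-identical NOTCH2NL genes, so its level is uncertain to that extent. NOTCH2NLA, NOTCH2NLB, NOTCH2NLC and NOTCH2NLR were sought by symbol and had no row.

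NOTCH1 (ENSG00000148400, chromosome 9, 136494433 to 136545786, minus strand) stood at 10.62, 10.54 and 11.02 in siRPL13 replicates 1 to 3 and at 10.55, 10.72 and 10.64 in siNC. The library labelled siRPL13 replicate 3 was the highest of the 6, and the other siRPL13 libraries overlapped siNC. The log2 difference was 0.09 ± 0.12 (SE; limma, adjusted p 0.803) with 6 libraries and -0.05 ± 0.06 (adjusted p 0.582) with 5. Its sign thus turned with that library, and in neither comparison did it pass the test. NOTCH3 (ENSG00000074181, chromosome 19, 15159038 to 15200981, minus strand), best known from vascular smooth muscle, was close to the lower limit for testing, a mean rlog of 3. It stood at 3.95, 4.01 and 4.06 in siRPL13 and 3.96, 4.05 and 3.98 in siNC. Since rlog values of genes with few reads are pulled together, the narrow 95% interval of its 5-library difference, -0.13 to 0.09, understates what a change in read counts could be.

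JAG1 was higher in siRPL13 replicates 1 and 2 than in every siNC library. JAG1 (ENSG00000101384, chromosome 20, 10637684 to 10673999, minus strand), a ligand of the Serrate type that is also a reported Notch target, stood at 11.78, 11.74 and 11.49 in siRPL13 replicates 1 to 3 and at 11.43, 11.62 and 11.54 in siNC. The library labelled siRPL13 replicate 3 lay within the siNC range. JAG1 rose by 0.23 ± 0.06 (SE, log2; limma, adjusted p 0.0227) in the 5-library comparison, and its 6-library difference was 0.14 ± 0.09 (adjusted p 0.639). The call was lost when either remaining siRPL13 library was also left out (adjusted p 0.232 without replicate 1 and 0.119 without replicate 2), with differences of 0.21 and 0.25.

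JAG2 (ENSG00000184916, chromosome 14, 105140981 to 105168824, minus strand), the second Jagged ligand, did not pass in either comparison. It stood at 6.54, 6.47 and 6.83 in siRPL13 replicates 1 to 3 and at 6.46, 6.74 and 6.55 in siNC. Here too the library labelled siRPL13 replicate 3 was the highest, and the groups overlapped. The 5-library difference was -0.08 ± 0.09 (SE, log2; limma, adjusted p 0.568), with a 95% interval from -0.28 to 0.12. NOTCH1 and JAG1 overlap antisense genes, JAG2 overlaps a transcript on its own strand, and these 3 genes and NOTCH3 each hold a miRNA gene, so reads of such neighbours cannot be told apart where the counting did not separate them.

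RBPJ (ENSG00000168214, chromosome 4, 26163455 to 26435131, plus strand), through which every mammalian Notch receptor acts, stood at 10.64, 10.72 and 10.67 in siRPL13 replicates 1 to 3 and at 10.81, 10.74 and 10.66 in siNC. The groups overlapped. The log2 difference was -0.06 ± 0.06 (SE) in both comparisons (limma, adjusted p 0.749 with 6 libraries and 0.515 with 5), and the 5-library 95% interval ran from -0.19 to 0.07.

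HES1 and HES4 both fell in the 5-library comparison, and their promoters are shown because both carry the RBPJ core motif at nearly the same distance from the start. HES1 (ENSG00000114315, chromosome 3, 194136145 to 194138732, plus strand) and HES4 (ENSG00000188290, chromosome 1, 998962 to 1000172, minus strand) encode basic helix-loop-helix repressors of neuronal differentiation. The windows are from RefSeq on GRCh38.p14 and run from 250 bases before to 50 bases after the start. HES1 is at chr3:194135898-194136197 on the plus strand and HES4 at chr1:1000048-1000347 on the minus strand, each written 5′ to 3′ on its own strand. Capitals mark the letters GTGGGAA and the shorter TGGGAA.
HES1: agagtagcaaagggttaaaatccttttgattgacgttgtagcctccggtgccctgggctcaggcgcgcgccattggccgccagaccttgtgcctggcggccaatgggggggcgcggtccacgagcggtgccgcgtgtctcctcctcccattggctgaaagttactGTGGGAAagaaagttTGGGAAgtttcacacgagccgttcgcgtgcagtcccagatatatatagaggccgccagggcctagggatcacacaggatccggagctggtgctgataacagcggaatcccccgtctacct
HES4: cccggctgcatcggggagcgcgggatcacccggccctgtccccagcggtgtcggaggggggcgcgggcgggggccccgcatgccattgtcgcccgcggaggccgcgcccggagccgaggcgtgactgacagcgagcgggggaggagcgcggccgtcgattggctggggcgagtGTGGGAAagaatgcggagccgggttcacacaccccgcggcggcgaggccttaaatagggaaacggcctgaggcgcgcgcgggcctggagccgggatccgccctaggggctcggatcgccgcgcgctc
GTGGGAA begins 85 bases before the start in HES1 and 77 bases before it in HES4. HES1 has another TGGGAA 70 bases before its start. On either strand GTGGGAA was found in 6.2% of 35116 promoter windows of the same length, and TGGGAA, which every GTGGGAA contains, in 24.0%. Of the 10 genes 9 had at least 1 window in the table, and GTGGGAA was also in 1 of the 5 windows of RBPJ. The letters are a description of the sequence and were not measured as bound.

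HES1 stood at 9.56, 9.73 and 10.02 in siRPL13 replicates 1 to 3 and at 9.88, 10.05 and 9.84 in siNC. Replicates 1 and 2 lay below every siNC library, and the library labelled siRPL13 replicate 3 lay within the siNC range. HES1 fell by 0.28 ± 0.08 (SE, log2; limma, adjusted p 0.0288) with 5 libraries, and the 6-library difference was -0.16 ± 0.12 (adjusted p 0.673). Leaving out 1 more library ended the call for siRPL13 replicate 1 (adjusted p 0.323), siRPL13 replicate 2 (0.0572) and siNC replicate 2 (0.0638).

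HES4 stood at 9.64, 9.80 and 11.12 in siRPL13 replicates 1 to 3 and at 10.56, 10.82 and 10.19 in siNC. The siRPL13 libraries lay on both sides of siNC: replicates 1 and 2 below every siNC value and the library labelled siRPL13 replicate 3 above every one. The siRPL13 mean was 10.19 ± 0.81 (SD, n = 3) and the siNC mean 10.52 ± 0.32 (SD, n = 3). With 5 libraries HES4 fell by 0.80 ± 0.14 (SE, log2; limma, adjusted p 0.00353). With all 6 its difference was -0.34 ± 0.35 (adjusted p 0.754). The call was lost with a robust variance prior (adjusted p 0.0728) and without siRPL13 replicate 1 (0.0690).

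HES4 is the neighbour of ISG15, which encodes an interferon-stimulated ubiquitin-like protein and is read in the other direction. In GENCODE 29 the facing ends of the 2 annotated genes are 965 bp apart, and in RefSeq their starts are 13400 bp apart. ISG15 stood at 12.81, 13.18 and 15.05 in siRPL13 replicates 1 to 3 and at 14.40, 14.74 and 13.57 in siNC. The 6 libraries had the same order for both genes: siRPL13 replicate 1 lowest, then siRPL13 replicate 2, siNC replicate 3, siNC replicate 1 and siNC replicate 2, with the library labelled siRPL13 replicate 3 highest. The median of 15 interferon-stimulated genes, a list chosen after these values were seen, was -1.43, -0.92 and 0.69 relative to the siNC mean in siRPL13 replicates 1 to 3 and 0.19, 0.37 and -0.56 in siNC, again in that order. HES4 itself was at -0.88, -0.72 and 0.60 in siRPL13 and 0.04, 0.30 and -0.33 in siNC. Not all of the 15 genes had that order. IRF7 was lowest in the library labelled siRPL13 replicate 3 (4.98), and IRF9 and PARP9 were highest in siNC replicate 1 (6.26 and 12.41). HES1 had the order except that siNC replicate 2 (0.13) lay above the library labelled siRPL13 replicate 3 (0.10). The share of all genes with this order was not counted. The part of interferon signalling or of the RPL13 level in the HES4 difference was not tested.

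**Figure D3:**
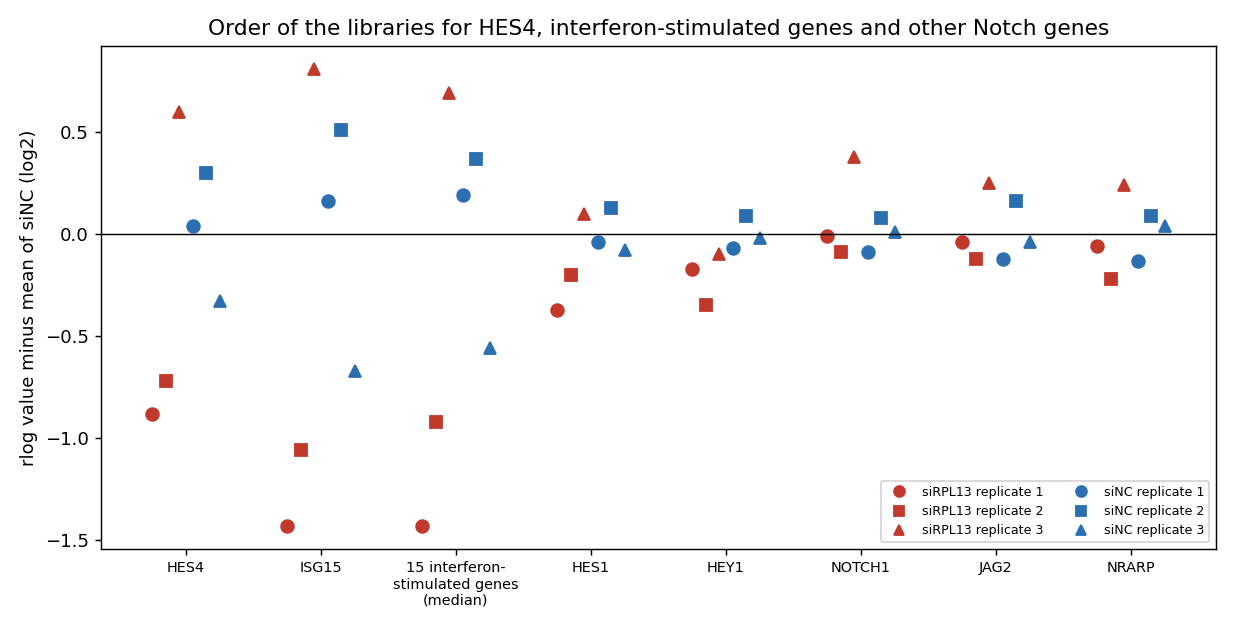
rlog relative to the siNC mean (vertical axis, log2 difference) for HES4, its neighbour ISG15, the median of 15 interferon-stimulated genes and 5 other Notch genes, with 1 point per library, siRPL13 in red and siNC in blue, the shape giving the replicate number. HES4, ISG15 and the median share 1 order of libraries. In it siRPL13 replicate 1 stands at -0.88, -1.43 and -1.43 and the library labelled siRPL13 replicate 3 at 0.60, 0.81 and 0.69. HES1 has that order except that siNC replicate 2 lies highest, above the library labelled siRPL13 replicate 3. For HEY1 all 3 siRPL13 libraries lie below siNC.

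HEY1 was the one gene of the 10 for which all 3 siRPL13 libraries lay below all 3 siNC libraries. HEY1 (ENSG00000164683, chromosome 8, 79764010 to 79767863, minus strand), a hairy-related repressor best known from vascular and cardiac development, stood at 8.32, 8.14 and 8.39 in siRPL13 replicates 1 to 3 and at 8.42, 8.59 and 8.47 in siNC. The gap between the groups was small: the library labelled siRPL13 replicate 3 and siNC replicate 1 were next to each other. Its difference was -0.21 ± 0.09 (SE, log2; limma, unadjusted p 0.0436, adjusted p 0.589) with 6 libraries. With 5 libraries HEY1 fell by 0.26 ± 0.08 (adjusted p 0.0470), close to the threshold. That call was lost in 6 of 13 alternatives, among them no filter on low values and quantile scaling, with adjusted p-values up to 0.359 (without siRPL13 replicate 2).

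NRARP (ENSG00000198435, chromosome 9, 137300482 to 137302251, minus strand), an ankyrin-repeat protein that Notch induces and that in turn limits Notch signalling, did not pass in either comparison. It stood at 6.12, 5.96 and 6.42 in siRPL13 replicates 1 to 3 and at 6.05, 6.27 and 6.22 in siNC. The library labelled siRPL13 replicate 3 was the highest of the 6, and the groups overlapped. The 5-library difference was -0.14 ± 0.09 (SE, log2; limma, adjusted p 0.270), with a 95% interval from -0.33 to 0.05. The 4 targets thus gave 3 falls and 1 gene that did not pass.

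The library labelled siRPL13 replicate 3 lay above every siNC library for 6 of the 10 genes, against 29.4% of all genes tested. Relative to the siNC mean it stood at 0.60 for HES4, 0.38 for NOTCH1, 0.25 for JAG2, 0.24 for NRARP, 0.06 for NOTCH3 and 0.03 for NOTCH2. For NOTCH3 and NOTCH2 it was nearly tied with siNC replicate 2, at 4.06 against 4.05 and at 15.29 against 15.29. JAG1, RBPJ and HES1 lay within the siNC range in that library, and HEY1 below it. DLL1, a Delta-like ligand, was also highest there, at 8.85, against 8.24 and 8.25 in siRPL13 replicates 1 and 2 and 8.39, 8.66 and 8.18 in siNC. The other ligands tested outside the 10 genes, DLL3, DLK2 and DNER, lay within the siNC range in that library.

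Levels of the 10 genes were compared per length, as rlog minus log2 of the exon length in kilobases. NOTCH2 was highest, at 11.20 ± 0.02 in siRPL13 and 11.19 ± 0.03 in siNC (SD, n = 3 each). HES4 came second at 10.03 ± 0.81 in siRPL13 and 10.36 ± 0.32 in siNC, followed by HES1 at 8.72 ± 0.23 in siRPL13 and 8.88 ± 0.11 in siNC. JAG1 stood at 8.45 ± 0.16 in siRPL13 and 8.31 ± 0.09 in siNC. RBPJ stood at 7.47 ± 0.04 in siRPL13 and 7.53 ± 0.08 in siNC, and NOTCH1 at 7.35 ± 0.26 in siRPL13 and 7.26 ± 0.09 in siNC. HEY1 (6.59 ± 0.13 in siRPL13, 6.80 ± 0.09 in siNC) and NRARP (5.34 ± 0.24 in siRPL13, 5.36 ± 0.11 in siNC) followed. JAG2 (3.94 ± 0.19 in siRPL13, 3.91 ± 0.14 in siNC) and NOTCH3 (0.77 ± 0.05 in each) were lowest. Both groups gave the same order. In siRPL13 the ranges of HES1 and JAG1 overlapped, as did those of RBPJ and NOTCH1, and in siNC no neighbours in the order overlapped.

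The rest of the pathway was read from 80 further genes in 6 lists by role, of which 64 were tested. In the 5-library comparison 8 rose and 10 fell, 28.1% of those tested against 19.1% of all genes, and the median log2 difference was -0.009. Of these calls only those of NCSTN, NEURL1B and CDKN1A held without siRPL13 replicate 1 as well. The same calls and those of DNER, DTX4 and HES6 held without siRPL13 replicate 2. Those of FURIN, LFNG, DTX4, CREBBP, MAML2, SNW1 and NCOR1 were lost without siNC replicate 3. The number of all genes called moved between these fits too, so the losses are not read as particular to the pathway. With all 6 libraries 0 of the 64 passed (limma), and 0% of all genes did. Of 4 other ligands tested 1 rose and 0 fell, 25.0% called against 19.1% of all genes. The noncanonical ligand DNER rose by 0.39 ± 0.07 (SE, log2; limma, adjusted p 0.00379), with 12.08, 12.06 and 11.67 in siRPL13 replicates 1 to 3 and 11.57 to 11.81 in siNC. Leaving out siRPL13 replicate 1 ended its call (adjusted p 0.0806). DLL1, DLL3 and DLK2 did not pass (adjusted p 0.342, 0.0949 and 0.323).

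Of 14 genes of receptor glycosylation and cleavage 3 fell and 0 rose, 21.4% called and thus near the 19.1% of all genes. NCSTN, the substrate-binding subunit of gamma-secretase, stood at 11.86, 11.86 and 12.21 in siRPL13 replicates 1 to 3 and at 12.18, 12.24 and 12.25 in siNC. It fell by 0.36 ± 0.05 (SE, log2; limma, adjusted p 0.00113), and this call held in all 13 alternatives tried with 5 libraries. FURIN, which cuts the receptors in the Golgi, fell by 0.22 ± 0.06 and LFNG, a Fringe glycosyltransferase that alters ligand preference, by 0.25 ± 0.07. The FURIN call was lost in 3 and the LFNG call in 4 of 13 alternatives, for both also when either siRPL13 library was left out. LFNG was lower in all 3 siRPL13 libraries (6.85, 6.84 and 7.02) than in siNC (7.07 to 7.13), as were EOGT and APH1B, which did not pass. The groups did not overlap for 13.8% of all genes. The sheddases ADAM10 and ADAM17 did not pass (adjusted p 0.678 and 0.703).

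Of 14 genes of ligand and receptor endocytosis and ubiquitination 3 rose and 2 fell, or 35.7% called against 19.1% of all genes. Of 4 ligases that act on ligands 1 rose and 1 fell, while MIB2 (0.17 ± 0.06, adjusted p 0.0679) and NEURL1 (0.01 ± 0.06, adjusted p 0.959) did not pass. MIB1, the main ligase that drives ligand endocytosis, rose by 0.31 ± 0.06 (SE, log2), with 10.79, 10.82 and 10.42 in siRPL13 replicates 1 to 3 and 10.42, 10.51 and 10.57 in siNC. NEURL1B, a Neuralized ligase, fell by 0.56 ± 0.08, with 9.01, 9.24 and 9.78 in siRPL13 replicates 1 to 3 and 9.59 to 9.74 in siNC. AAK1, an endocytic kinase, rose by 0.32 ± 0.06 and DTX4, a Deltex ligase, by 0.38 ± 0.10. The MIB1 and AAK1 calls were lost when either siRPL13 library was left out (adjusted p up to 0.0944 and 0.0987). That of DTX4 was lost without siRPL13 replicate 1, where its difference was 0.24 (adjusted p 0.302), and without siNC replicate 3. DTX3L, a Deltex relative that is itself interferon-inducible, fell by 0.54 ± 0.17, but siRPL13 replicate 2 (11.94) lay above siNC replicate 3 (11.89) and the call was lost in 10 of 13 alternatives.

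Of 7 coactivators 3 rose, CREBBP by 0.21 ± 0.05, MAML2 by 0.20 ± 0.06 and SNW1 by 0.20 ± 0.06, and 1 fell, MAML3 by 0.38 ± 0.10 (SE, log2), together 57.1% called against 19.1% of all genes. The MAML2 and SNW1 calls were each lost in 6 of 13 alternatives, that of CREBBP in 4 and that of MAML3 in 2, for all of them also when either siRPL13 library was left out. CREBBP is an acetyltransferase, SNW1 bridges RBPJ and its partners, and MAML2 and MAML3 are Mastermind proteins. CREBBP and MAML2 were higher in all 3 siRPL13 libraries than in every siNC library. The groups did not overlap for 13.8% of all genes. Among wider pathway genes that were not called, MIB2 was likewise higher and EOGT, APH1B and L3MBTL3 were lower in all 3. Of 17 corepressor genes NCOR1 rose by 0.19 ± 0.05 and SAP30, a subunit of a histone deacetylase complex, fell by 0.24 ± 0.05, and the other 15 had differences between -0.15 and 0.17. These 2 calls make 11.8%, below the 19.1% of all genes, and were lost in 6 of 13 alternatives for NCOR1 and 2 for SAP30.

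Of 8 other HES/HEY genes and reported targets 3 fell and 0 rose, 37.5% called against 19.1% of all genes. HES6 fell by 0.33 ± 0.06 (SE, log2; limma, adjusted p 0.00639), with 8.67, 8.73 and 9.08 in siRPL13 replicates 1 to 3 and 9.01, 9.05 and 9.03 in siNC. Leaving out siRPL13 replicate 1 ended this call (adjusted p 0.122). HES6 is known to inhibit HES1, and is usually not counted among Notch targets. HES7, the segmentation-clock repressor, fell by 0.38 ± 0.12 (adjusted p 0.0469), a call lost in 6 of 13 alternatives. CDKN1A, the inhibitor of cyclin-dependent kinases and foremost a p53 target, fell by 0.77 ± 0.09 (adjusted p 0.000538). MYC and CCND1, both reported Notch targets, did not pass (adjusted p 0.222 and 0.170), with MYC at 10.89 in siRPL13 replicates 1 and 2 on average against 10.71 in siNC.

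**Figure D4:**
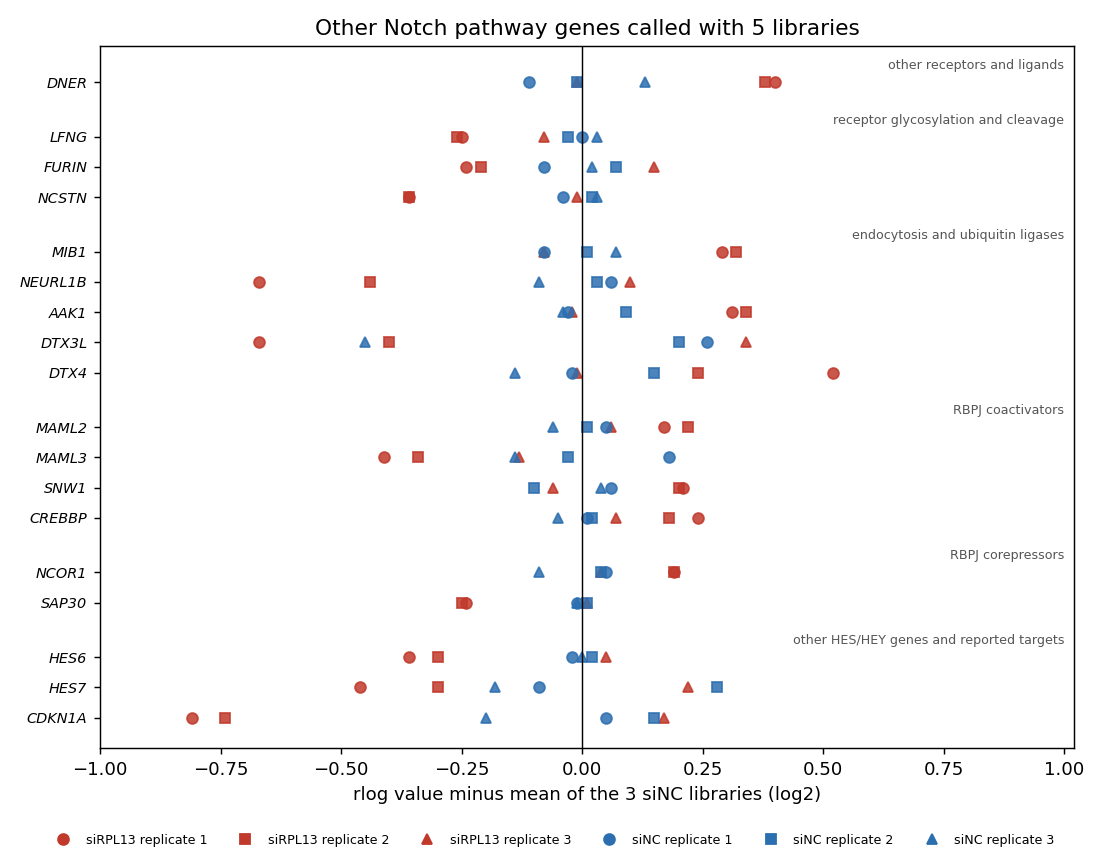
rlog relative to the siNC mean (horizontal axis, log2 difference) for the 18 genes of the 6 wider lists with an adjusted p under 0.05 in the 5-library comparison, grouped by role, with 1 point per library, siRPL13 in red and siNC in blue, the shape giving the replicate number. For NCSTN siRPL13 replicates 1 and 2 stand at 11.86 each, below siNC, while the library labelled siRPL13 replicate 3 lies with siNC, and for DTX3L the siNC libraries themselves span most of the range.

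For each of the 10 genes, the gene with the most similar values over the 6 libraries was sought among the 9593 whose mean rlog reached 8. The highest Pearson correlations lay between 0.965 (TSPAN2 for RBPJ) and 0.999, over 6 libraries that share their scaling, and are given as a description. The closest gene to HES4 was TRIM21, an interferon-inducible antibody receptor (r = 0.999), which stood at 9.02, 9.21 and 10.56 in siRPL13 replicates 1 to 3 and at 9.95, 10.20 and 9.64 in siNC. TNIP1 was closest to NRARP (0.999), ZFHX3 to NOTCH3, PIGF to JAG1 and DAAM2 to JAG2 (0.995 each), and RAVER1 to NOTCH1 (0.992). GORASP1 was closest to HES1 (0.991), PPP1R3B to NOTCH2 (0.990) and BID to HEY1 (0.985).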

How the data were processed

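The deposited table holds 1 value per Ensembl gene for 6 libraries. Per the table's name, the values the authors deposited are regularized-log values on the log2 scale. Per the submitters' processing notes, Trimmomatic 0.33, TopHat, HTSeq 0.6.1p1, DESeq2 and GRCh38.p7 were used, with no settings given. The strand setting is not stated in those notes; of annotated antisense neighbours overlapping a member, that of NOTCH1 had a mean rlog of 0.60. Low genes are shrunken, so their differences are understated, and no count model was used. Symbols came from a gene name table (20499 identifiers) and GENCODE 29 (20608), which gave positions and exon lengths.

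The 15327 genes whose mean rlog reached 3 were tested with limma 3.58.1 in R 4.3.3 (lmFit, eBayes with trend, two-sided, Benjamini-Hochberg over all genes tested, threshold 0.05). Intervals are 95% intervals for the difference between group means. They rest on the spread between libraries within the groups, moderated over genes by limma, and do not bound single libraries. The labels call the libraries biological triplicates, without saying how cultures were separated, so the spread behind the p-values may be technical. At the deposited precision, 0 tested genes had the same value in any pair of libraries. The tests were also run on simulated data, in which no library deviated from its group and the planted differences were larger than most of those called here. That run therefore does not cover a library such as the one labelled siRPL13 replicate 3, and nothing is concluded from it. Named wider-pathway genes are up to 4 per list and direction with the smallest adjusted p in the 5-library comparison. The members, the lists and the 5-library comparison were chosen with earlier results of these data known. Alternatives were no filter, a minimum of 5, quantile scaling, median centring, no trend, a robust prior, library weights, the replicate number as a block, and leaving out each library. Plots were made with matplotlib 3.10.9.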

Additional observations from a re-analysis of the deposited data

How the results depend on the processing

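With all 6 libraries, library weights gave 5309 of 15327 genes, 5 of the 10 Notch genes and 23 of the 64 wider pathway genes tested. The counts of Notch genes are to be read against that count of all genes. The RPL13 difference was -1.02. The weights were 0.163 for the library labelled siRPL13 replicate 3, 7.19 for siRPL13 replicate 2 and 0.596 to 1.70 for the others, so that fit rests mainly on 1 siRPL13 library. Leaving out 1 library gave 0 to 2933 genes, 0 to 4 of the 10, 0 to 18 wider genes and RPL13 differences from -1.06 to -0.53; every count above 0 came from leaving out that library. With 5 libraries, leaving out 1 more gave 243 to 3748 genes, 0 to 4 of the 10 and 3 to 19 wider genes. Of the calls among the 10, none held without siRPL13 replicate 1 and only that of HES4 without siRPL13 replicate 2. Those of JAG1 and HES4 held without siNC replicate 2. Since the number of all genes called moved too, these losses are not read as particular to the 10. Where 1 siRPL13 library was left, it was assumed to vary like the siNC libraries. The sign of JAG1, HES1, HES4 and HEY1 held in all 13 alternatives. Of these, 11 kept the call for JAG1, 10 for HES1, 11 for HES4 and 7 for HEY1. Deviations of same-numbered libraries from their group means correlated at 0.084, -0.428 and -0.328. The siRPL13 mean includes the library labelled siRPL13 replicate 3, so these values cannot show whether libraries were paired. The replicate block gave 0 genes with 6 libraries, and 3043 genes and 4 of the 10 with 5, where it leaves 1 residual degree of freedom. NOTCH3 was not tested with the minimum of 5. The causes were not tested, and without read depth no counting error can be given.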
